A study of Mus musculus with 2 samples.

Results

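The cells described here were microglia of mice on a control diet that carried little immediate early RNA, 229 of the 1194 cell barcodes in the series and 229 of the 609 in the control library. They were chosen by a rule on the counts. Control barcodes with at least 500 genes and under 10% mitochondrially encoded UMIs were taken, which were all 609. From these, barcodes were dropped with at least 1% of UMIs from S100a8 and S100a9 (49), with at least 0.05% from Mrc1, Cd163, Lyve1, Cd209f, Clec10a and F13a1 (109), or with UMIs in at least 3 of Ccr2, Plac8, Ly6c2 and Napsa (22). The rules removed 151 barcodes, 26 of them under more than 1 rule, and left 458. These were ranked by the summed share of UMIs from Fos, Jun, Junb, Egr1, Gem, Socs3, Gadd45g and Ppp1r15a. The 229 lowest are called low immediate early microglia below, and the other 229 high immediate early microglia.

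The study profiled brain cells of adult C57BL/6J mice by droplet single-cell RNA sequencing, in which each captured RNA molecule is counted once by its unique molecular identifier (UMI). The control library, labelled CD, held cells pooled from 4 mice fed control diet for 19 days. The other library, labelled Repop D5, held cells pooled from 6 mice given PLX5622, a CSF1R inhibitor that depletes microglia, over 14 days, then returned to control diet and taken after 5 days. In both, brains were dissociated with warm papain, myelin was removed on Percoll, and live cells positive for CD11b and CD45 were sorted. The same drop rules left 507 Repop D5 barcodes of 553 that passed the cell filter and of 585 in all. Each condition was 1 library of pooled animals, so no difference here has a replicate check. Library, depth and treatment cannot be told apart, and animals within a pool cannot be separated. The libraries shared 1 barcode sequence.

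Microglia are the resident macrophages of the brain. In the undisturbed adult they survey the tissue with motile processes, take up debris and synaptic material, and depend on CSF1R and TGF-beta signals to keep their identity. Immediate early genes are transcribed within minutes of a stimulus from promoters already loaded with transcription factors. They encode regulators such as the FOS and JUN subunits of AP-1, and enzymatic release of cells from tissue is known to induce them.

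The 300-base promoter windows of 4 immediate early genes are shown because the low group was defined by such RNA, and those of Cst3 and C1qc because these are among its most abundant messages. Fosb and Dusp1 are not genes of the rule. Every window shown holds the letters marked in it, and windows without them are not shown. They are RefSeq sequences of GRCm38.p6, 5′ to 3′ on the gene's strand, from 250 bases before to 50 bases after the gene's start. Capitals mark TGACG or its reverse complement CGTCA in the immediate early genes, the short form of the cAMP response element. In Cst3 and C1qc they mark GAGGAA or its reverse complement TTCCTC, the core of sites bound by ETS factors such as PU.1.
Fos, a subunit of AP-1, at chr12:85473640-85473939 on the plus strand: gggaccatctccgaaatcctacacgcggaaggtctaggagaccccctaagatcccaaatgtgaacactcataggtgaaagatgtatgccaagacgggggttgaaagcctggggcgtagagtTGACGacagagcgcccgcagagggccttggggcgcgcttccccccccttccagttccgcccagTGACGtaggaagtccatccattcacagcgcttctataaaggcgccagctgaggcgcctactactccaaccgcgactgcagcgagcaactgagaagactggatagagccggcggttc
Fosb, another subunit of AP-1, at chr7:19309996-19310295 on the minus strand: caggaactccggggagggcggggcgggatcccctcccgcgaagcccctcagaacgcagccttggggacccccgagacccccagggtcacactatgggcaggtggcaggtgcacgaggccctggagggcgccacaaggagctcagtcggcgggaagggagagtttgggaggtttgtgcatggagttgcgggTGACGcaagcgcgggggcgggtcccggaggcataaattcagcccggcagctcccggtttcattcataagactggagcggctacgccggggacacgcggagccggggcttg
Dusp1, a phosphatase of MAP kinases, at chr17:26508423-26508722 on the minus strand: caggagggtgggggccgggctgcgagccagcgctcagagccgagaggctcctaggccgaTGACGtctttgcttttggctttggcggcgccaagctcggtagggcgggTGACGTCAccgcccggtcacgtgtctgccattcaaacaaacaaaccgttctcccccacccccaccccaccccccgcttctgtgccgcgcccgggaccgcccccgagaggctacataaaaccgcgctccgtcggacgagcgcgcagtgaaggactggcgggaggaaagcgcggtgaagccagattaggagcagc
Ppp1r15a, a phosphatase subunit that restores translation after stress, at chr7:45526219-45526518 on the minus strand: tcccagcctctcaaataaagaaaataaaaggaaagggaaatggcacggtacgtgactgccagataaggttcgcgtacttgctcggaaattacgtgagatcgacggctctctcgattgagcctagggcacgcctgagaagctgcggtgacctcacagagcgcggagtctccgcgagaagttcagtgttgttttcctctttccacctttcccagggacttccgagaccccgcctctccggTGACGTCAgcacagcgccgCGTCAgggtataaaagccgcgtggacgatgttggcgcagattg
Cst3, cystatin C, at chr2:148875463-148875762 on the minus strand: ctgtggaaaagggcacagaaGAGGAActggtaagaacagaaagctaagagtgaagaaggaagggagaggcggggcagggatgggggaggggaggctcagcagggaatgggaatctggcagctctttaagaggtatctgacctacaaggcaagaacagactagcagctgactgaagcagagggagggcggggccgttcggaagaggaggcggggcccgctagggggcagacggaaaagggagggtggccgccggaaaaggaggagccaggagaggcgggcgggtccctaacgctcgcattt
C1qc, a chain of the complement protein C1q, at chr4:136892865-136893164 on the minus strand: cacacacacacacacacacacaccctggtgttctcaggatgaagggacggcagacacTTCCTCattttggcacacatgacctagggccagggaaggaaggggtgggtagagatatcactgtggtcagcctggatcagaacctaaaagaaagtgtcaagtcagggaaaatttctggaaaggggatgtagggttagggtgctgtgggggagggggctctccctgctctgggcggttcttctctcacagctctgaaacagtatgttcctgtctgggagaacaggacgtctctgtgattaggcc

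Matches were searched on both strands, and each is a description of letters, not a site in use. Counting both strands, TGACG had 2 matches in the Fos window, 1 in Fosb, 3 in Dusp1 and 3 in Ppp1r15a. The matches at -143 and -140 in Dusp1 overlap, as the 2 strands of 1 TGACGTCA. The same holds for those at -12 and -9 in Ppp1r15a. Of the 8 genes that chose the cells, 6 had a window in the RefSeq table and 3 of these held TGACG. Over those 8 and 27 other immediate early genes, 28 had a window and 17 of them (60.7%) held TGACG. The share was 23% of all 27025 genes with a window. By window it was 23 of 42 (54.8%) against 20.8% of 32851. The full element TGACGTCA, which overlaps TGACG on both strands, was in 4 of the 28 (14.3%), against 2.03% of all genes. By window it was in 4 of 42 (9.52%), against 1.79% of all windows. The AP-1 site TGANTCA was in 1 of the 28 (3.57%), against 8.97% of all genes. GAGGAA was in 6 of the 17 homeostatic microglial genes that had a window (35.3%), against 31.3% of all genes. By window the order was the other way, 6 of 22 (27.3%) against 28.3% of all windows.

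The share that chose the cells ran from 0% to 0.304% of UMIs in low immediate early microglia, with a median of 0.159%. In high immediate early microglia it ran from 0.304% to 3.14%, with a median of 0.554%. The split was a position in a continuous range and not a gap. The last 3 barcodes inside were at 0.303951%, 0.30034% and 0.29548%, the first 3 outside at 0.304054%, 0.306212% and 0.306413%, and 134 of the 458 barcodes lay within 0.1 percentage points of the boundary. No UMI of the 8 genes was seen in 5 of the low immediate early microglia. These had 2972 to 3406 UMIs each, under the group's median of 4729, so a low share could be missed. In Repop D5 microglia the median was 0.0639%, and 475 of 507 (93.7%) lay at or under the highest low immediate early barcode, so the low group was low for the control library and not for the series.

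Depth was unequal. The low immediate early microglia held 1637413 UMIs in all, 2940 to 40808 per barcode, with medians of 4729 UMIs, 1930 genes and 1.90% mitochondrially encoded UMIs. High immediate early microglia held 2194422 UMIs, with medians of 5713 UMIs, 2047 genes and 2.00%. Repop D5 microglia held 10037608 UMIs, with medians of 15982 UMIs, 3660 genes and 4.84%. Levels below are UMIs summed over a group per 1000000 UMIs of that group (CPM), and a count of 0 in the low group allows up to 1.83 CPM. All 95% intervals are exact intervals of the counts, and they cover counting error only, not differences between cells or animals. Percentages of barcodes with a UMI are after thinning each barcode to 3000 UMIs, while numbers of barcodes out of 229, or without a UMI, are at full depth. Thinning left out 7 low and 2 high immediate early barcodes.

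The label was checked on 5 markers. Cst3, a secreted inhibitor of cysteine proteases, was at 71747 CPM in low immediate early microglia (95% interval 71337 to 72158). P2ry12, the ADP receptor that steers microglial processes, was at 3362 CPM, and Tmem119, a microglial surface protein, at 2433 CPM. Crybb1, a crystallin whose RNA marks adult microglia in mice, was at 661 CPM, and Sall1, a zinc finger factor that holds microglial identity, at 285 CPM. After thinning, 100% of the low immediate early barcodes had a UMI of Cst3, 98.2% of P2ry12, 98.2% of Tmem119, 81.5% of Crybb1 and 52.7% of Sall1. The 49 barcodes dropped by the S100a8 and S100a9 rule, with a median of 7995 UMIs, had such a UMI in 83.3% of cases for P2ry12, 83.3% for Tmem119, 54.2% for Crybb1 and 41.7% for Sall1. They are a poor background, since their own summed UMIs held 52291 CPM of Cst3 and 2447 CPM of P2ry12. The 109 barcodes dropped for Mrc1 and the genes summed with it had a median of 13421 UMIs. Their summed UMIs held 55969 CPM of Cst3 and 2618 CPM of P2ry12, so the rules also removed barcodes with microglial RNA. In the GENCODE M21 annotation of the same build, Cst3 lies at chr2:148871722-148875692, P2ry12 at chr3:59216272-59262871, Tmem119 at chr5:113793729-113800516, Crybb1 at chr5:112255815-112269585 and Sall1 at chr8:89027235-89044162.

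Summed over 10 microglial markers, the share per barcode ran from 0.695% to 17.7% in low immediate early microglia (median 10.0%) and from 1.44% to 15.6% in high immediate early microglia (median 9.73%). In 7 low immediate early barcodes it was 1.94% or less, and the next was at 4.70%. In 11 high immediate early barcodes it was 4.29% or less, and the next was at 6.16%. Of those 7, 1 drew 90.1% of its UMIs from haemoglobin and other erythrocyte genes, and a pair carried all or most endothelial markers (6 and 8 of 8, with Cldn5 and Ly6c1). A further pair carried neuronal markers (4 of 9 each, with Tubb3), 1 was led by Cd74, H2-Aa and Mgl2, and 1 by Il10, Slc13a3 and Fgl2. The barcode at 4.70% held 18 of the group's 18 UMIs of Vpreb3 and 8 of its 9 of Cd79a, both B cell genes. By this measure the label fits 222 of the 229, but these include the barcode with B cell genes, which lies just above the limit used below. The measure is weak, since Cst3 gave 71747 of its 96171 CPM in the low group. Barcodes dropped by the S100a8 and S100a9 rule summed to 71121 CPM of the 10 markers. It cannot tell microglia from barcodes of other cells that also hold microglial RNA. Values without barcodes under 4.5% of these markers, called marker-poor, are given below where they moved by over 1.5 times, a limit set after the values were seen.

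**Figure D1:**
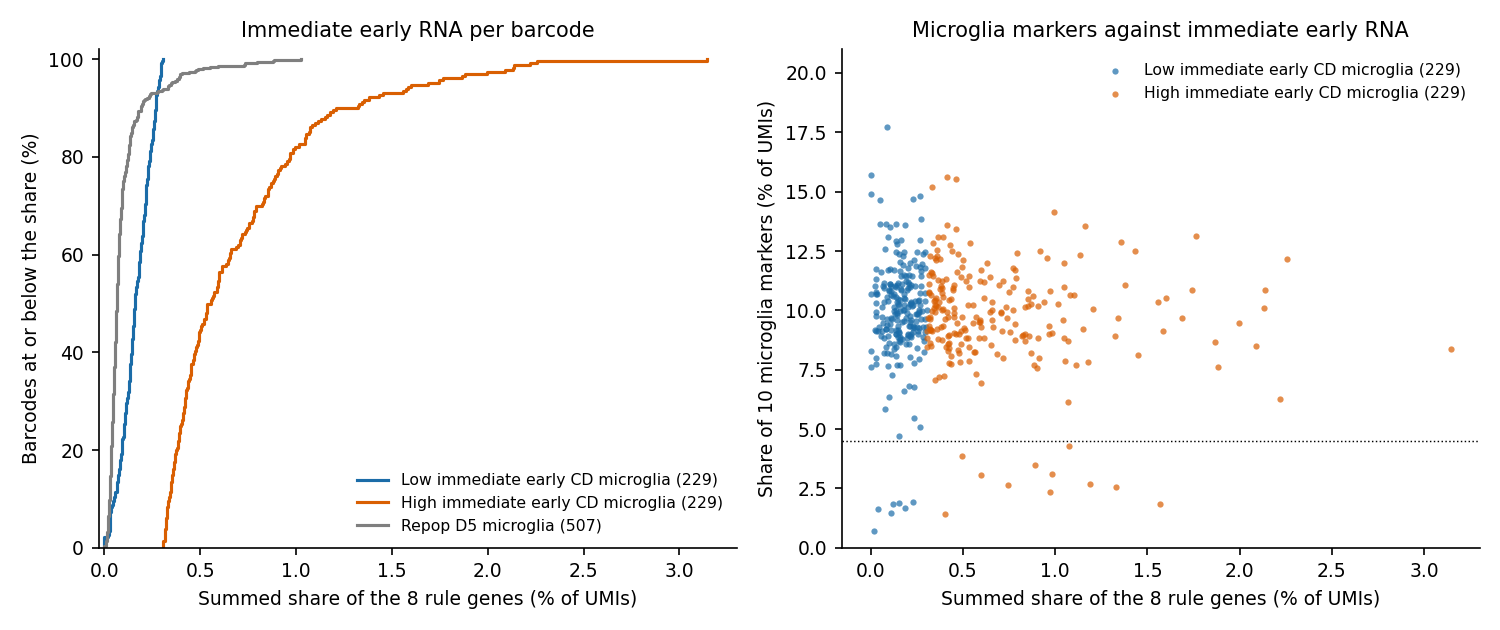
Left, percent of barcodes at or below each summed share of the 8 rule genes (percent of UMIs) in low immediate early, high immediate early and Repop D5 microglia, whose medians are 0.159%, 0.554% and 0.0639%. Right, share of the 10 microglial markers against that share (both percent of UMIs, 1 point per control barcode), where the dotted line at 4.5% sets off 7 low and 11 high immediate early barcodes.

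Markers of other cells were read in the low immediate early group at unequal levels. The drop rules used some of the border macrophage, monocyte and neutrophil markers, so their sums were limited by the choice of barcodes. Border macrophage markers summed to 564 CPM in low and 725 CPM in high immediate early microglia, with at most 0.256% in 1 low immediate early barcode. Monocyte markers summed to 80.0 and 98.4 CPM. T and NK cell markers summed to 1.22 and 1.82 CPM, with Cd3e, Cd3d and Cd3g at 0 UMIs in the low group. Neutrophil markers summed to 2304 and 2526 CPM. S100a8 alone gave 1115 CPM and had a UMI in 226 of the 229 low immediate early barcodes at full depth (95.5% of 222 after thinning), while Elane and Mpo had none. S100a8 was at 47982 CPM in the barcodes dropped for it, a difference whose direction the drop rule fixed. Endothelial markers summed to 166 and 37.8 CPM, neuronal markers to 62.9 and 33.3 CPM, and erythrocyte markers to 5917 and 60.2 CPM. Without barcodes under 4.5% of microglial markers these sums were 35.3 and 37.7 CPM, 22.1 and 29.2 CPM, and 59.9 and 59.9 CPM. B cell markers summed to 73.9 and 40.6 CPM, and dendritic cell markers, which include the microglial gene Siglech, to 1331 and 1241 CPM. Astrocyte markers summed to 198 and 211 CPM with Aqp4 at 0, and oligodendrocyte markers to 107 and 89.8 CPM with Mobp and Cldn11 at 0. The part of these RNAs in the differences below was not tested. No doublets were removed, and Scrublet called 5 of 609 CD barcodes (0.821%) and 10 of 585 Repop D5 barcodes (1.71%).

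A few messages took a large part of the RNA of low immediate early microglia. Of 13240 genes with a UMI, 131 reached 1000 CPM, 3041 reached 50 CPM and 7862 reached 10 CPM. The 10 most abundant genes held 18.5% of UMIs, the top 100 held 38.3% and the top 1000 held 69.2%. Cst3 alone held 7.17% and Malat1, a nuclear long noncoding RNA, 4.15%. The 3 chains of C1q, the recognition part of the classical complement pathway, held 2.92% together, and 104 ribosomal protein genes held 11.7%. After thinning, 17 genes had a UMI in every barcode, 156 in at least 90% of barcodes, 552 in at least 50% and 3905 in at least 10%.

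Cst3 held 0.563% to 15.3% of a barcode's UMIs in low immediate early microglia (median 7.41%), 1.21% to 12.5% in high immediate early microglia (median 7.28%) and 0.220% to 4.32% in Repop D5 microglia (median 0.648%). The lowest value of the low group was that of a marker-poor barcode. The ranges of the control groups covered each other, while the 10th percentile of the low immediate early barcodes, 5.61%, lay above the highest Repop D5 barcode.

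C1qa held 0.0657% to 1.94% (median 1.15%) in low immediate early microglia, 0.0886% to 1.77% (median 1.04%) in high immediate early microglia and 0.0400% to 1.33% (median 0.454%) in Repop D5 microglia. The lowest value of the low group was again that of a marker-poor barcode. In summed UMIs C1qa was at 10801 CPM in low and 9436 CPM in high immediate early microglia, 1.14 times as high (95% interval 1.12 to 1.17). C1qb was at 9859 and 8634 CPM, and C1qc at 8547 and 7594 CPM. All 3 chains were thus higher in the low group by a little, in ranges that overlapped almost wholly.

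Other genes of complement were far less abundant in low immediate early microglia. Itgam, the CD11b chain of complement receptor 3, was at 373 CPM, and its partner Itgb2 at 190 CPM. The anaphylatoxin receptors C3ar1 and C5ar1 were at 176 and 151 CPM. C3, the central component, was at 2.44 CPM. Of 19 complement genes in the list, 10 reached 10 CPM in a control group.

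Genes of the lysosome stood next to complement. The protease Ctsd was at 10146 CPM in low and 9231 CPM in high immediate early microglia, and Ctss, an elastolytic cathepsin, at 6584 and 6251 CPM. Lgmn, an asparaginyl endopeptidase, was at 3838 and 3829 CPM. Cd68, a lysosomal membrane protein of macrophages, was at 749 and 681 CPM. The ratios of the 33 measured lysosome genes ran from 0.759 to 1.14, so all stayed well inside 1.5-fold.

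**Figure D2:**
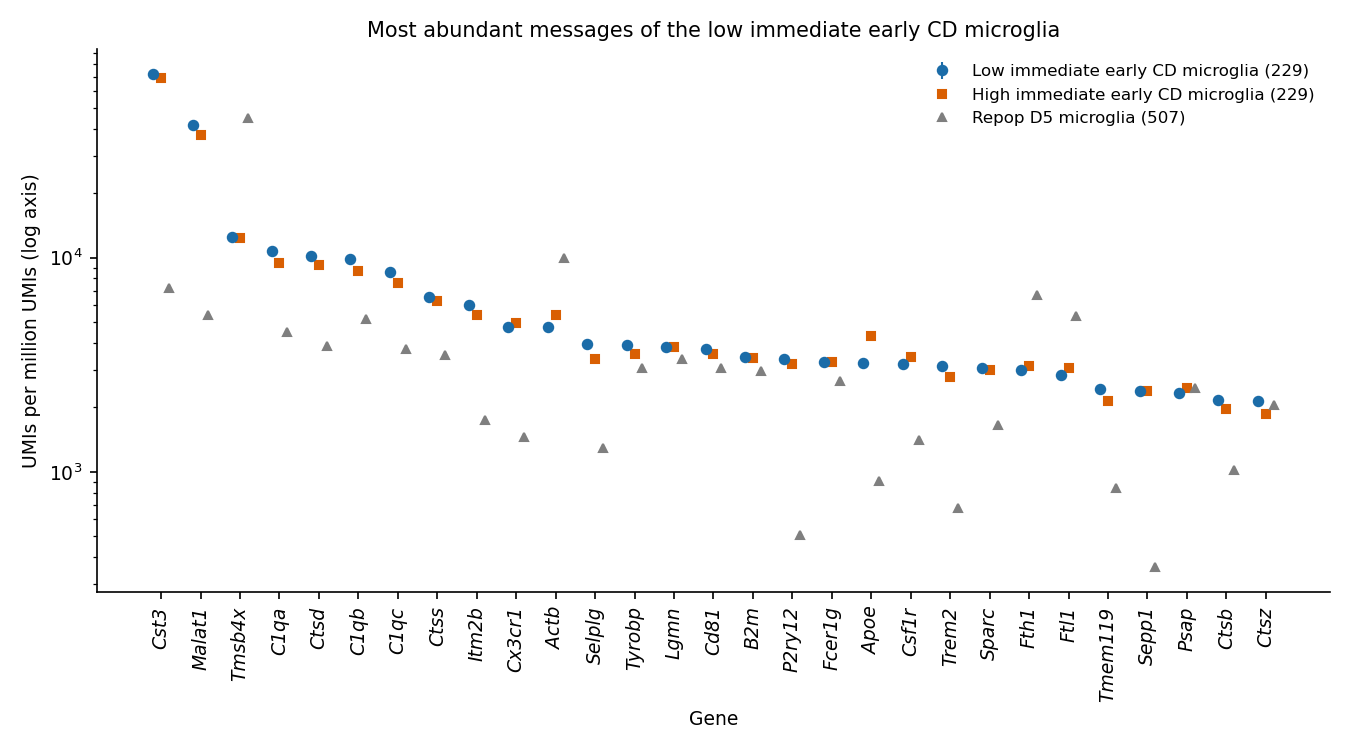
Summed level (CPM, log axis) of genes among the 30 most abundant of low immediate early microglia (circles, with exact 95% counting intervals), in high immediate early microglia (squares) and in Repop D5 microglia (triangles). Cst3 is at 71747, 69183 and 7217 CPM, and the control groups lie close together for most genes.

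Receptors of the resting state were read at high levels. Csf1r, the receptor for the survival factors CSF1 and IL-34, was at 3183 CPM in low and 3443 CPM in high immediate early microglia. Cx3cr1, which binds fractalkine from neurons, was at 4773 and 4956 CPM, and Selplg, a selectin ligand, at 3940 and 3349 CPM. Per barcode the Cx3cr1 median went the other way, 0.379% of UMIs in low and 0.349% in high immediate early microglia. Trem2, a lipid receptor, was at 3120 and 2771 CPM, and its signalling adaptor Tyrobp at 3893 and 3571 CPM. Gpr34, a lysophosphatidylserine receptor, was at 1827 and 1634 CPM, and P2ry13 and P2ry6, receptors for ADP and UDP, at 623 and 446 CPM in the low group. Among Fc receptors, Fcer1g, the shared signalling chain, was at 3269 CPM, Fcrls at 2049 CPM and Fcgr3 at 1538 CPM in the low group. Of the Toll-like receptors, Tlr7 at 88.6 CPM, Tlr13 at 67.8 CPM and Tlr2 at 55.6 CPM led in the low group, and Tlr8 and Tlr9 had no UMI there.

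Among transcription factors, Mef2c was at 849 CPM in low and 831 CPM in high immediate early microglia, Irf8 at 661 and 598 CPM, and Spi1, which encodes PU.1, at 537 and 484 CPM. Sall1 was at 285 and 294 CPM. In the TGF-beta pathway the ligand Tgfb1 was at 525 and 428 CPM, its receptor Tgfbr1 at 933 and 970 CPM, and Smad7, an inhibitor induced by the pathway, at 128 and 101 CPM. Of 25 measured transcription factors none was past 1.5-fold higher in the low group and 1, Tal1, a haematopoietic factor at 15.9 and 27.8 CPM, was past 1.5-fold lower, where 2.31% and 2.33% of all genes at 10 CPM were past it in each direction.

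The list of genes named for disease-associated microglia summed to 33426 CPM in low immediate early microglia, Trem2 among them, and its members and other genes were read at very unequal levels. Spp1, which encodes osteopontin, was at 3.05 CPM, Itgax, which encodes CD11c, at 3.05 CPM, and Gpnmb had no UMI. Axl, a receptor for apoptotic cells, was at 11.6 CPM, while its relative Mertk was at 351 CPM. Il1b, a cytokine, was at 30.5 CPM and Cxcl2, a neutrophil chemokine, at 10.4 CPM. Isg15, an interferon-induced modifier, was at 22 CPM.

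The 8 genes that chose the cells were still read in them, and their values here are a description. Jun was the most abundant at 884 CPM in low and 2445 CPM in high immediate early microglia. Per barcode, Jun held 0% to 0.249% (median 0.0738%) in the low group, 0.0171% to 1.28% (median 0.242%) in the high group and 0% to 0.361% (median 0.0177%) in Repop D5 microglia. Junb was at 550 and 1723 CPM, Fos at 194 and 1203 CPM, and Egr1, a zinc finger factor, at 74.5 and 397 CPM. No Fos UMI was seen in 99 low immediate early barcodes and in 26 high immediate early ones. Gadd45g, a growth arrest gene, was at 46.4 and 114 CPM, Socs3, an inhibitor of cytokine signalling, at 39.7 and 138 CPM, Ppp1r15a at 34.8 and 111 CPM, and Gem, a small GTPase, at 13.4 and 38.3 CPM. The group ratios ran from 0.161 for Fos to 0.409 for Gadd45g.

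Setting low against high immediate early microglia uses the same UMIs as the rule, so what follows is descriptive and no test was made. A gene is counted as higher or lower where its ratio is past 1.5-fold and the counting interval leaves out 1. Of 3222 genes at 50 CPM in either group, 25 (0.776%) were higher and 48 (1.49%) lower in low immediate early microglia, and 2574 (79.9%) lay within 1.2-fold. For the gene lists the minimum was 10 CPM, where 191 of 8253 genes (2.31%) were higher and 192 (2.33%) were lower, and the median log2 ratio was 0.02. Without marker-poor barcodes the shares were 0.713% higher and 1.43% lower at 50 CPM, and 1.99% and 2.19% at 10 CPM.

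Immediate early genes outside the rule were lower in the low group, 16 of 22 measured, with a median log2 ratio of -1.37. Dusp1 was at 139 CPM in low and 575 CPM in high immediate early microglia, Fosb at 37.9 and 205 CPM, and Ier2, a growth factor response gene, at 68.4 and 298 CPM. Jund, the AP-1 subunit least dependent on stimulation, was at 599 and 1107 CPM, and Zfp36, which speeds decay of cytokine messages, at 249 and 608 CPM. Atf3, a stress-induced factor, was at 40.9 and 130 CPM and Klf4, a zinc finger factor, at 33.6 and 97.5 CPM. The list was not uniform. Rhob, a small GTPase and the most abundant of the list, was at 1012 and 1121 CPM (ratio 0.903), and Sgk1, a kinase induced by glucocorticoids, was at 301 and 281 CPM (ratio 1.07).

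Genes of NF-kB signalling and cytokines were lower in part, 8 of 21 with none higher and a median log2 ratio of -0.48. Without 1 low immediate early barcode rich in Ccl4 and Ccl3, 12 of 21 were lower and the median was -0.71. Nfkbia, the inhibitor that NF-kB itself induces, was at 273 CPM in low and 724 CPM in high immediate early microglia (ratio 0.377). Nfkbiz was at 36.0 and 88.4 CPM, Tnfaip3, a brake on the pathway, at 23.2 and 49.7 CPM, and Il1b at 30.5 and 68.4 CPM. Of 12 heat shock genes 3 were lower. These were Hspa1a, an inducible chaperone, at 421 and 673 CPM, with Dnajb1 (ratio 0.628) and Hsph1 (ratio 0.590). The constitutive chaperone Hspa8 was at 1149 and 1300 CPM.

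Genes of the resting programme differed little across the split. Of 26 homeostatic genes none was past 1.5-fold in either direction. Their ratios ran from 0.785 for Lag3, an inhibitory receptor, to 1.18 for Selplg, with 17 above 1 and 9 below and a median log2 ratio of 0.07. No gene was past the limit among 33 lysosome, 10 complement, 8 purinergic, 15 TGF-beta pathway, 40 oxidative phosphorylation, 20 adhesion and 14 glycolysis genes. With the share of all genes past it at 2.31% and 2.33%, lists of this size hold few such genes to begin with.

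**Figure D3:**
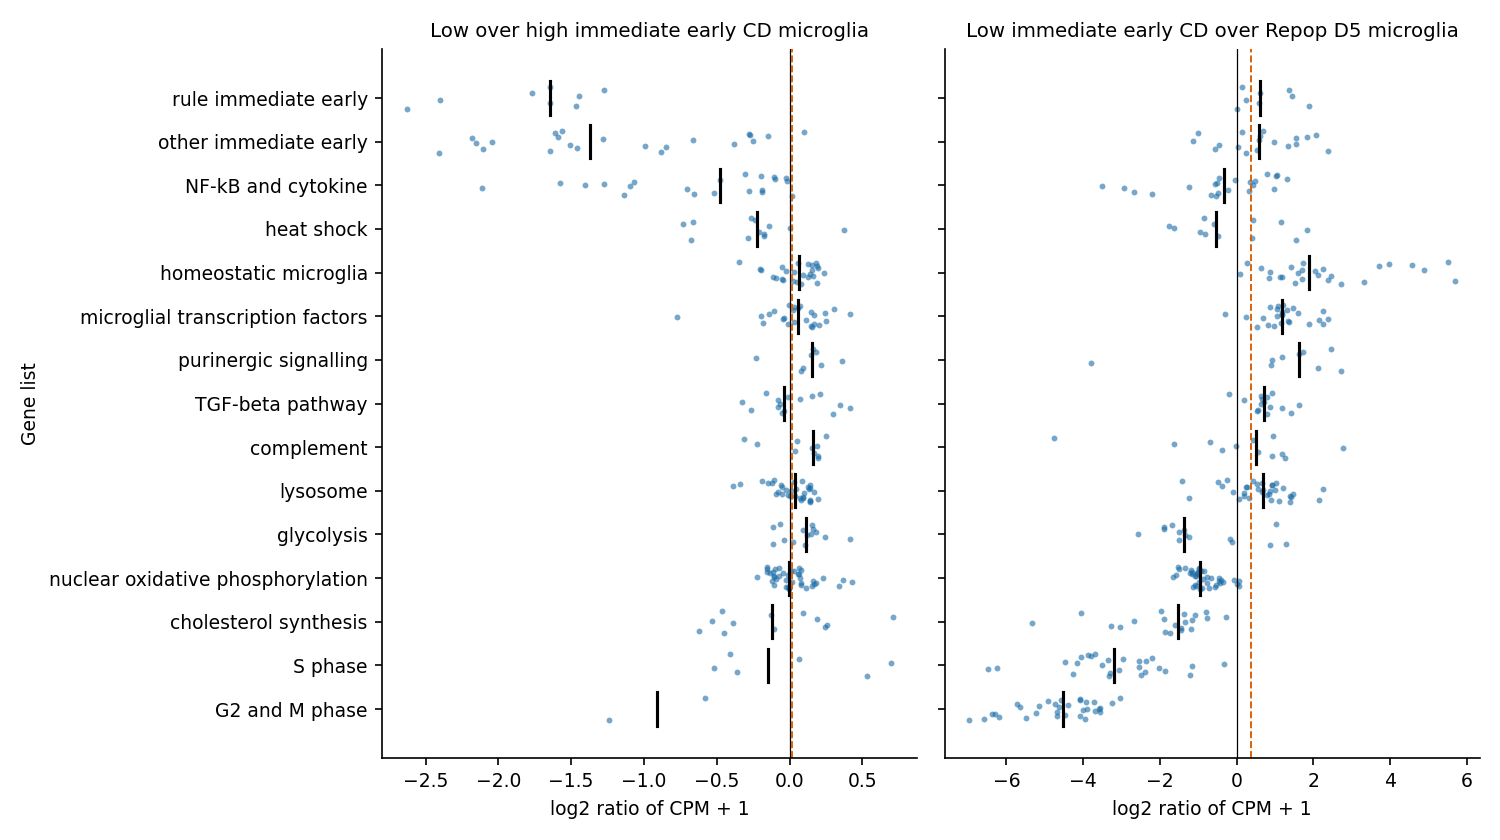
Log2 ratio of each listed gene for low over high immediate early microglia and for low immediate early over Repop D5 microglia (points, genes at 10 CPM in either group; black bars are list medians, dashed line the median of all genes). The immediate early lists lie at -1.65 and -1.37 against high immediate early microglia, the homeostatic list at 0.07 there and at 1.89 against Repop D5 microglia.

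Among genes higher in the low group, several rested on 1 barcode. Hba-a1, a haemoglobin chain, was at 1894 CPM in low and 11.8 CPM in high immediate early microglia, with 99.2% of its UMIs in 1 barcode and 15.8 and 12.3 CPM without marker-poor barcodes, and Hbb-bs was at 1859 and 31.4 CPM with 98.6% in 1 barcode. Without barcodes under 4.5% of microglial markers the log2 ratio of Hbb-bs was -0.27 and that of Hbb-bt -0.33. Ptgds, a prostaglandin synthase of meninges and choroid plexus, was at 79.4 and 14.6 CPM, with 86.9% of its UMIs in 1 barcode. Ly6a, an endothelial surface protein, had a ratio of 4.91 that was 2.01 without the marker-poor barcodes. Meg3, a neuronal noncoding RNA, had 2.78 and 1.12, and Il10, an anti-inflammatory cytokine, was at 11 and 0.911 CPM but had no UMI in the low group without them. Pltp, a phospholipid transfer protein, and Slc2a1, the glucose transporter of brain endothelium, had ratios of 2.03 and 1.51 that were 0.823 and 0.932 without them.

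What stayed after that was small in size. Snhg20, a small nucleolar RNA host gene, was at 59.9 CPM in low and 30.1 CPM in high immediate early microglia (ratio 1.99, 95% interval 1.44 to 2.76). Hist1h1c, a linker histone, had a ratio of 1.69, and Il18, a cytokine made as an inactive precursor, was at 64.1 and 41.0 CPM (ratio 1.56). Mrps5 and Mrpl34, proteins of the mitochondrial ribosome, had ratios of 1.62 and 1.61, and Timm50, a mitochondrial import protein, 1.61.

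Class II MHC genes, which present antigen, were lower in the low group, 4 of 9 with a median log2 ratio of -0.71. Cd74, the invariant chain, was at 828 CPM in low and 1833 CPM in high immediate early microglia. In the low group 36.8% of its UMIs were in 1 marker-poor barcode. The medians per barcode were alike, 0.105% and 0.0998% of UMIs for the list. At least 2% of UMIs came from these genes in 2 low immediate early barcodes, 1 of them marker-poor, and in 13 high immediate early barcodes, 9 of them marker-poor. The list summed to 2330 CPM in low and 4390 CPM in high immediate early microglia. Without the marker-poor barcodes, the sums were 1769 and 2363 CPM, 3 of 9 genes were lower and the median was -0.31. Apoe, a lipid carrier that border macrophages make in quantity, was at 3209 and 4317 CPM, a ratio of 0.743 that was 0.835 without them.

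When the 458 barcodes were put in 4 bins of 114 or 115 by the rule's share, low to high, the 8 rule genes summed to 1078, 2332, 4122 and 8885 CPM, which the ranking fixes. Other immediate early genes went the same way, at 3542, 4387, 5715 and 8672 CPM. Heat shock genes were at 3912, 4053, 4354 and 5409 CPM. NF-kB and cytokine genes were at 2071, 1827, 2455 and 3351 CPM. Without the 1 barcode rich in Ccl4 that is described below, an exclusion made after seeing the data, the first bin was at 1696 CPM and lowest. Homeostatic genes were at 110280, 114755, 112015 and 106849 CPM, a spread of a few percent with no steady direction. Without marker-poor barcodes they were at 116190, 116002, 112849 and 111834 CPM, lower in each next bin. Cx3cr1 was highest in the middle, at 4131, 5191, 5617 and 4079 CPM, and complement genes were at 30630, 30645, 26899 and 27549 CPM. Class II MHC genes were at 2770, 2043, 2334 and 7118 CPM, and at 1297, 2063, 1989 and 2887 CPM without marker-poor barcodes. The median depth of the bins was 4020, 6181, 6092.5 and 5450 UMIs, and its part in these sums was not tested.

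**Figure D4:**
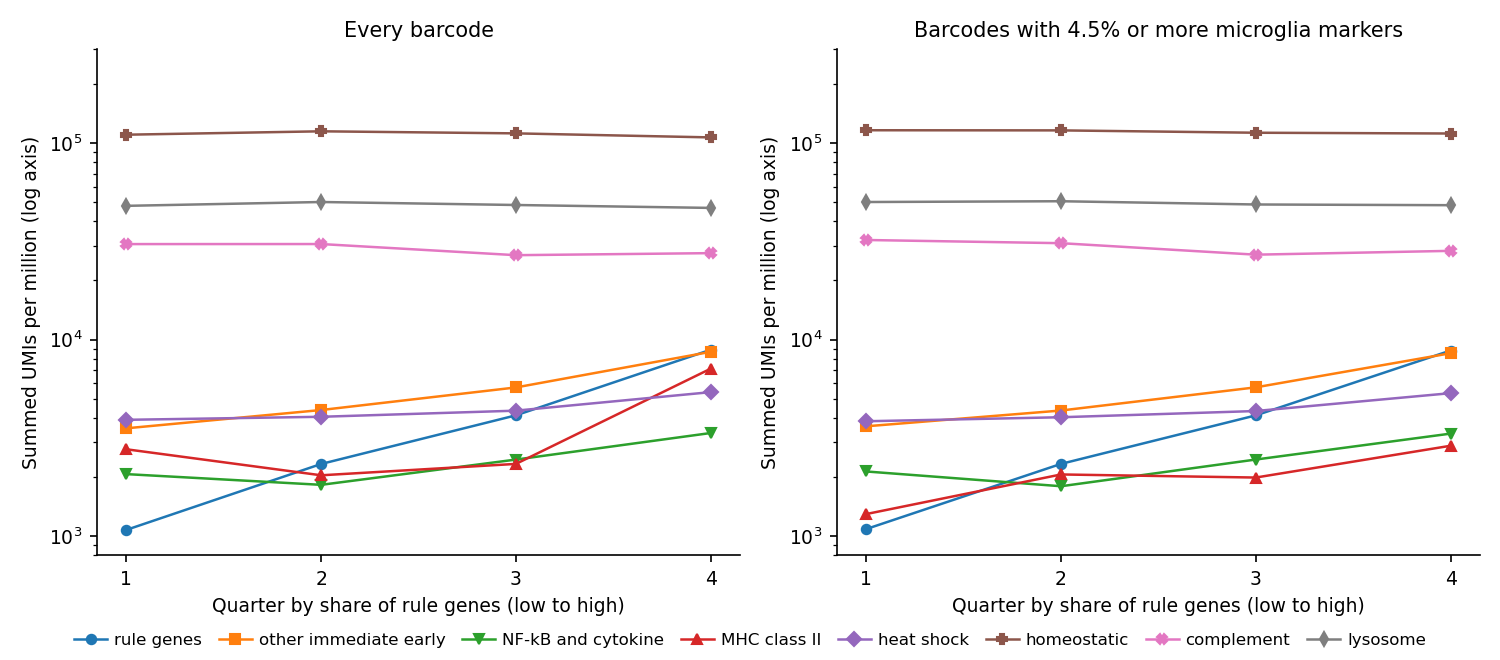
Summed level of 8 gene lists (CPM, log axis) in the 4 bins of control microglia ordered from low to high share of the 8 rule genes, for every barcode (left) and for barcodes with 4.5% or more of microglial markers (right). Other immediate early genes lie between 3542 and 8672 CPM over every barcode, in the order of the bins, while homeostatic genes stay between 106849 and 114755 CPM.

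Variation among low immediate early microglia was read as the spread of thinned counts. Of 561 genes at 200 CPM or more, the variance across thinned barcodes over the mean had a median of 1.11, where 1 is counting alone. It was at least 1.5 for 63 genes, at least 2 for 35 and at least 3 for 20, and for 45, 22 and 13 genes without marker-poor barcodes. Sall1 was at 1.02 and Csf1r at 1.45. Cst3 was at 17.0, with 15 to 442 of 3000 UMIs per barcode and a median of 225, and Malat1 at 19.5. Without marker-poor barcodes Cst3 had 91 to 442 UMIs per barcode, and the highest Malat1 count was 247 in place of 490. For the same relative spread these ratios grow with the level of a gene, and a gene near 200 CPM stays close to 1, so the counts say nothing of how many genes differ between cells.

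Some of the spread came from few barcodes. Apoe was at 30.3, and the 9 low immediate early barcodes with at least 1% of UMIs from Apoe held 31.7% of its UMIs, up to 5.99% of 1 barcode against a median of 0.175%. Cd74 was at 54.1, and at 23 without marker-poor barcodes. Hba-a1 was at 862, and at 1.00 without them. Actb, cytoplasmic actin, was at 12.4, and 28 barcodes drew at least 1% of UMIs from it against a median of 0.326%. A single barcode held 116 of the group's 219 UMIs of Ccl4 and 91 of 235 of Ccl3, both chemokines. It also held 40 of 56 of Plau, a plasminogen activator, and 17 of 17 of Gdf15, a stress-induced ligand. That barcode had 3107 UMIs, 8.59% from microglial markers, and a rule share of 0.129%, so it was low in immediate early RNA. The next barcode had 0.117% of UMIs from Ccl4 against its 3.73%.

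**Figure D5:**
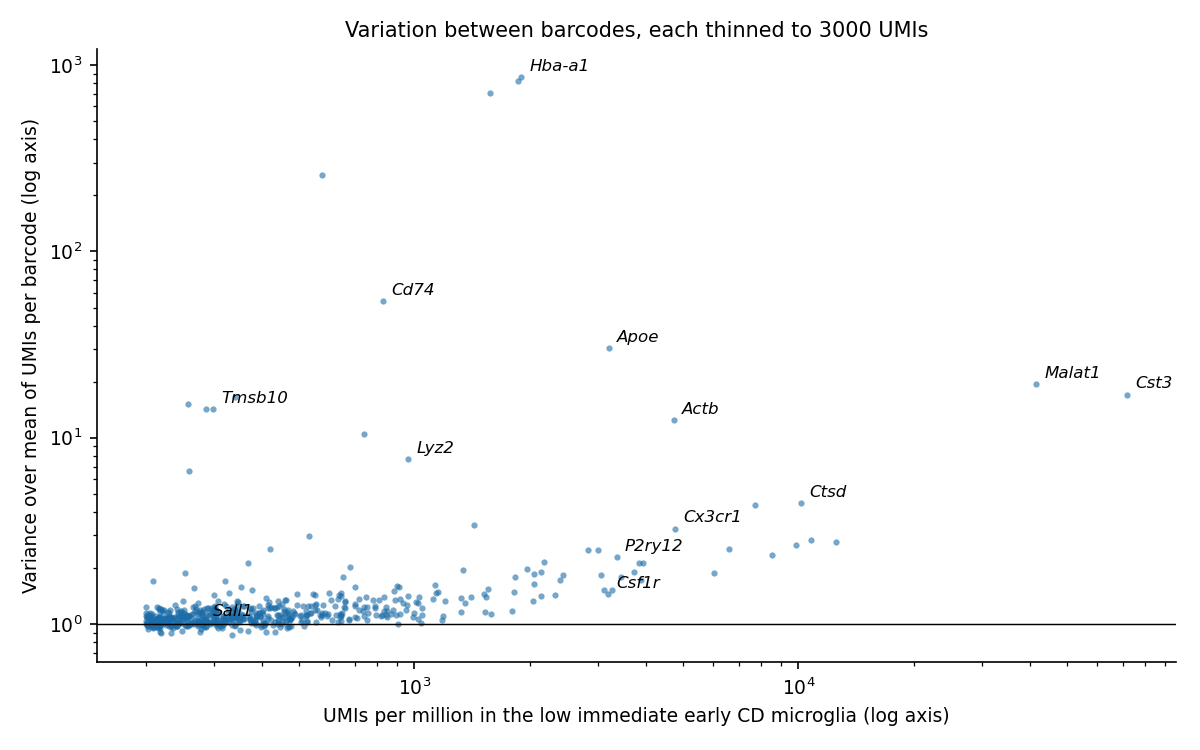
Variance over mean of thinned UMI counts across low immediate early microglia against mean level (CPM, both axes log) for 561 genes at 200 CPM or more, with 1 marking counting alone. Most genes lie near the median of 1.11, and haemoglobin genes, Cd74, Apoe, Malat1 and Cst3 stand above.

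Against Repop D5 microglia both control groups differed widely, and the values below are those of the low immediate early group. Of 3421 genes at 50 CPM in either group, 1282 (37.5%) were higher and 805 (23.5%) lower in low immediate early microglia, and 584 (17.1%) lay within 1.2-fold. The median log2 ratio of these genes was 0.25. Trimmed-mean scaling moved log2 ratios by about -0.50, which put the median of the same genes at -0.25, so list medians are given with both scalings, the trimmed-mean value second. At the 10 CPM minimum used for lists, 3372 of 8416 genes (40.1%) were higher and 1420 (16.9%) lower, with a median of 0.38 (-0.11 with trimmed-mean scaling). Ribosomal protein genes held 11.7% of UMIs in low immediate early and 24.1% in Repop D5 microglia, and mitochondrially encoded genes 2.01% and 4.96%. High immediate early microglia differed from Repop D5 microglia much alike, with 604 of 3405 genes (17.7%) within 1.2-fold. Their list medians were 1.96 for homeostatic, 1.10 for transcription factor, 0.65 for lysosome, -0.91 for oxidative phosphorylation and -1.47 for glycolysis genes. Such differences were thus not particular to the low group. The groups parted in immediate early genes outside the rule, 1.74 in high and 0.59 in low, and in NF-kB and cytokine genes, 0.51 and -0.33.

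Of 26 homeostatic genes 24 were higher in low immediate early microglia and none lower, and their median log2 ratio was 1.89 (1.39 with trimmed-mean scaling). P2ry12 was at 3362 CPM in low immediate early and 509 CPM in Repop D5 microglia, 6.61 times as high (95% interval 6.36 to 6.87). Per barcode it held 0% to 1.02% (median 0.338%) in the low group and 0% to 0.456% (median 0.0449%) in Repop D5 microglia. Crybb1 was at 661 and 11.8 CPM, 56.3 times as high (46.5 to 68.6), and 19 of 229 low immediate early barcodes had no UMI of it against 428 of the deeper 507. Lag3 was at 308 and 5.78 CPM, and Adgrg1, an adhesion receptor, at 305 and 9.46 CPM. Sall1 was at 285 and 54.4 CPM, and Tmem119 at 2433 and 844 CPM. The smallest ratio was that of Olfml3, a secreted protein, at 1963 and 1862 CPM (ratio 1.05, and below 1 with trimmed-mean scaling). Beyond the list, Csmd3, a large membrane protein, was at 83.7 and 0.797 CPM and Tnfrsf17, a receptor of the TNF family, at 56.2 and 0.598 CPM.

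Of 25 transcription factors 22 were higher and none lower (median 1.18, and 0.69 with trimmed-mean scaling), among them Mef2c at 849 CPM in low immediate early and 329 CPM in Repop D5 microglia. Of 9 purinergic genes 8 were higher and 1 lower (1.61 and 1.12), and of 15 TGF-beta pathway genes 12 were higher and none lower (0.72 and 0.22). Of 34 lysosome genes 19 were higher and 2, Ctsc and Gusb, lower (0.67 and 0.17). Of 12 complement genes 5 were higher and 3 lower, with a median of 0.50 that was 0 to 2 decimals with trimmed-mean scaling. C1qa was at 10801 and 4519 CPM, and Cfp, properdin, the positive regulator of the alternative pathway, at 4.89 and 158 CPM. The iron exporter Slc40a1 was at 130 and 8.67 CPM while ferritin heavy chain, Fth1, was at 3002 and 6708 CPM.

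Of 8 Fc receptor genes 5 were higher and 1 lower in low immediate early microglia (median 1.44, and 0.94 with trimmed-mean scaling), with Fcgr3, which binds immune complexes, at 1538 CPM against 482 CPM in Repop D5 microglia. Of 9 class II MHC genes 7 were higher and 1 lower (1.60 and 1.10), with Cd74 at 828 and 247 CPM, a ratio of 3.34 that was 2.17 without marker-poor barcodes. Of 22 interferon genes 3 were higher and 9 lower (-0.44 and -0.91), with Ifitm3, an antiviral membrane protein, at 107 and 359 CPM. Genes named for disease-associated microglia split, 8 of 22 higher and 9 lower, and their median of 0.17 turned to -0.37 with trimmed-mean scaling. In that list Trem2 was at 3120 and 681 CPM, while Lpl, lipoprotein lipase, was at 22 and 165 CPM and Axl at 11.6 and 152 CPM.

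Genes of growth lay the other way. All 32 measured genes of G2 and M phase and 25 of 26 of S phase were lower in low immediate early microglia, with median log2 ratios of -4.53 and -3.19 (-4.81 and -3.53 with trimmed-mean scaling). Mki67, a marker of cycling cells, had no UMI in the low group and 124 CPM in Repop D5 microglia, so it was at least 67.8-fold lower, counting 3 UMIs over the whole group as the floor. Rrm2, a ribonucleotide reductase subunit, was at least 47.7-fold lower on the same floor, and Top2a, a topoisomerase, had 1 UMI, a ratio of 0.00400 with a counting interval of 0.000101 to 0.0223. Of 40 oxidative phosphorylation genes 29 were lower and none higher (median -0.97, and -1.47 with trimmed-mean scaling), and of 20 genes of cholesterol synthesis 19 were lower and none higher (-1.53 and -1.99). Of 14 glycolysis genes 9 were lower and 3 higher (-1.36 and -1.86), with Gapdh at 442 and 2605 CPM. Of 19 translation factors 15 were lower and 1 higher (-0.94 and -1.44), and of 25 actin and cytoskeleton genes 16 were lower and 2 higher (-0.99 and -1.50). Tmsb4x, which binds actin monomers, was at 12516 and 44776 CPM.

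For the 8 genes that chose the cells, values against Repop D5 microglia depend on where the control barcodes were split, so they are given as a description. Their median log2 ratio was 0.60, 0.11 with trimmed-mean scaling, and -0.07 when the control barcodes were cut in 3 groups and the lowest was used. Jun was at 884 and 237 CPM, Fos at 194 and 192 CPM, and Egr1 at 74.5 and 62.4 CPM. With trimmed-mean scaling the log2 ratios of Fos and Egr1 were below 0. Jund, outside the rule, was at 599 and 114 CPM (ratio 5.27), and Ier2 at 68.4 and 101 CPM (ratio 0.678). Of 22 NF-kB and cytokine genes 5 were higher and 6 lower (median -0.33 and -0.83). Ccl12, a monocyte chemokine, was at 131 and 1005 CPM. Of 12 heat shock genes 3 were higher and 6 lower (-0.54 and -1.03), with Hspa1a at 421 and 143 CPM and Hsp90ab1, a constitutive chaperone, at 903 and 1736 CPM.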

How the data were processed

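RNA of single sorted brain cells was measured in 2 droplet libraries. The deposited UMI counts per gene and barcode are raw counts, made with Cell Ranger 2.1.0 on mm10 per the submitters' processing notes. The annotation release and the rule that called cells are not given in the sources used here. The authors also deposited a matrix of both libraries in which CD was identical and Repop D5 held 96.8% of its UMIs.

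Members followed the rule in the report. They, the 34 gene lists and the 16 marker lists were chosen with earlier results of these data known, and 8 list symbols and 4 marker symbols were not matched. Counts were summed per group and scaled to CPM with every gene in the total. With 1 library per condition no test was made. CPM has exact Poisson, shares Clopper-Pearson and ratios exact binomial 95% intervals. Log2 ratios used a pseudocount of 1 CPM, which understates the change of low genes. Thinning to 3000 UMIs was drawn 20 times. Variance over mean was averaged over the draws, and the number of barcodes with a UMI was their median. The alternatives with thinning used 1 draw. The ratio code was tested on simulated counts.

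Named genes were the 5 markers, the 8 rule genes, the 30 most abundant, the 12 highest and 12 lowest ratios to high immediate early microglia, the 8 highest and 8 lowest to Repop D5, the 10 most variable, and for each list the 2 most abundant with the highest and lowest ratio. Other list genes given were chosen for their known role after their values were seen, as were genes leading single barcodes. Some genes that the rule names are not reported here. The same picks without marker-poor barcodes were added later. Positions matched for 178 of 178 identifiers of named genes in GENCODE M21. UMIs count molecules, so no length scaling was applied. Alternatives covered scaling, totals, thinning, the split, doublets, the cell filter, the minimum level and the aggregated matrix. Python 3.11.15, numpy 2.4.6, scipy 1.17.1, pandas 2.3.3, scanpy 1.11.5 and matplotlib 3.10.9 were used.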

Additional observations from a re-analysis of the deposited data

How the results depend on the processing

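No paired analysis was possible because each group is 1 library or part of 1. Against high immediate early microglia 73 genes were past 1.5-fold (25 higher, 48 lower). The count was 383 at a minimum of 10 CPM and 522 with no minimum, where more genes are compared. It was 188 when barcodes were cut in 3 and the outer groups compared (97 higher, 91 lower) and 199 after thinning (121 and 78), where fewer barcodes or UMIs enter. Trimmed-mean scaling gave 17 higher and 55 lower, and totals without mt-, ribosomal protein and rule genes 25 and 68. The other settings gave 69 to 76. Against Repop D5 microglia 2087 genes were past it (1282 higher, 805 lower), with 4792 at 10 CPM and 6008 with no minimum. The split was 600 to 1497 with trimmed-mean scaling and 1082 to 1317 with the reduced totals.

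The homeostatic median stayed between 0.03 and 0.11 against high immediate early microglia. Against Repop D5 it was 1.89, and 1.39 with trimmed-mean scaling, 1.61 with reduced totals, 1.68 with a pseudocount of 10 CPM, 1.74 after thinning and 1.88 with the lowest of 3 groups. The 5 markers summed to 78487 CPM, and to 77426 when barcodes were split after thinning, 78929 with at least 1000 genes and under 5% mt-, 80627 without marker-poor barcodes, 81436 with equal weight per barcode, 81485 after thinning and 91148 with reduced totals.

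With trimmed-mean scaling the log2 ratio to Repop D5 microglia turned from above 0 to below for 28 of 178 named genes, and that to high immediate early microglia changed sign for 11, none of them past 1.5-fold. Past 1.5-fold, signs turned as follows. Against high immediate early microglia the stricter cell filter gave log2 ratios of -0.21 for Hbb-bs and -0.40 for Hbb-bt. Leaving out marker-poor barcodes, a setting chosen after seeing the data, gave -0.27 and -0.33 for these, -0.96 for Il10, -0.26 for Pltp, -0.10 for Slc2a1 and 0.22 for Ube2c. Between the outer of 3 groups Il10 was at -1.33 and Ube2c at 1.71, both on few UMIs. Against Repop D5 the lowest of 3 groups gave -0.068 for Junb and -0.031 for Socs3. The causes of these moves, in counts and in signs, were not tested for any setting. Splitting after thinning kept 204 of the 229 barcodes in the low group. Another 7 could not be thinned. Genes near 1.83 CPM cannot be told from absent here.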
